A study of Rattus norvegicus with 4 samples.

Results

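Aminoacyl-tRNA synthetases are the enzymes that join each amino acid to its transfer RNA, and the 35 genes described here encode the cytosolic forms (19 genes) and the mitochondrial forms (16 genes). They were taken by symbol, and a probe counted when its RefSeq accession mapped to one of those symbols in the current rat gene table. A probe was found for 32 of the 35 genes, out of 16581 named genes on the array: all 19 cytosolic genes and 13 of the 16 mitochondrial genes. Iars2, Lars2 and Mars2, the mitochondrial forms for isoleucine, leucine and methionine, were matched by no probe and were not analysed here. The list holds no form for aspartate.

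The cells were NR8383, a macrophage line established from the lung lavage of a normal rat and grown as a mix of adherent and floating cells. All 4 samples were cultures exposed for 4 h to 2 µg/mL of the iron oxide particle Fe2O3 (NRCWE018), after 20 passages, and they are described by the study as biological replicates. The control cultures of the study were not analysed here, so no value below is an effect of the particles. The comparison that remains is between cytosolic and mitochondrial genes, and between the 4 exposed cultures.

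Every cell keeps separate sets of synthetases for the cytosol and for mitochondria, both encoded in the nucleus. In mammals, glycyl- and lysyl-tRNA synthetase serve both compartments from 1 gene each, and mitochondria make glutaminyl-tRNA by way of an amidotransferase. Several cytosolic synthetases sit in a large multi-synthetase complex held together by scaffold proteins. When amino acids run short, uncharged tRNA activates the kinase GCN2, translation of the transcription factor ATF4 rises, and in mouse and human cells ATF4 raises transcription of many cytosolic synthetase genes through a composite element shared with C/EBP factors.

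Of the macrophage markers, 12 of 12 were above background on all 4 arrays, whereas 0 of 10 lung epithelium markers were on any. Of 5 measured T and B cell markers, 1 was above background on all 4 arrays (Cd3d), as were 3 of 8 markers of endothelium and fibroblasts (Pecam1, Cdh5 and Vwf). Their part in the results below was not tested. In these bulk samples, fewer cells of a type and less RNA per cell cannot be told apart. The 75th percentile of the processed signal lay between 756.5 and 1082 over the 4 arrays, lowest on replicate 4, and no spot was saturated. All arrays were printed on the same slide, 1 culture to a position, and the effects of culture and of position cannot be told apart. The number of arrays limits the precision.

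Both sets of synthetase genes were above background throughout. All 32 measured genes, 19 cytosolic and 13 mitochondrial, were well above background on all 4 arrays, by the mark that the scanner software sets for each spot. Among all named genes the share was 50.5%. Levels are given as log2 processed signal relative to the 75th percentile of the same array, so 0 is the 75th percentile itself. Probes differ in brightness, so a level is not a measure of transcript number and the level of one probe is not set against that of another. As a description of signal, 14 of 19 cytosolic genes and 2 of 13 mitochondrial genes had a mean level above the 75th percentile, against 44.4% of all genes above background on all 4 arrays. The processed signal of the cytosolic probes ran from 229.9 (Hars1) to 41710 (Gars1), and that of the mitochondrial probes from 26.0 (Aars2) to 1698 (Tars2).

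**Figure D1:**
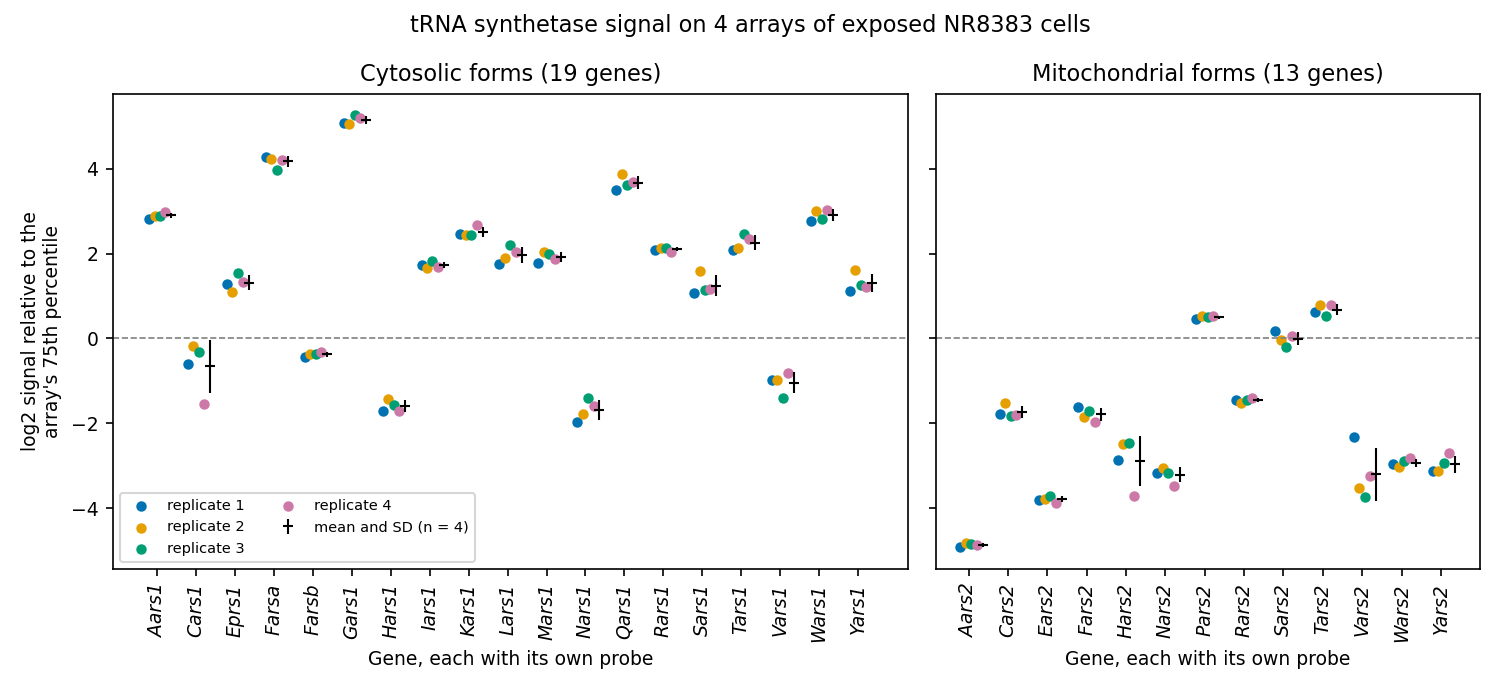
Level on a log2 scale, with the array's 75th percentile at 0 (y axis), of the 19 cytosolic and 13 mitochondrial synthetase genes (x axis), with 1 coloured point per array and the mean and SD over n = 4 arrays in black. Of the cytosolic genes 14 lie above the dashed line at 0 by their mean, and of the mitochondrial genes 2; the points of Cars1, Hars2 and Vars2 are the most spread.

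The class II enzymes, whose catalytic core differs in fold from that of class I, included Gars1, the glycyl-tRNA synthetase that also serves mitochondria. The brighter of the Gars1 probes was at 5.08, 5.06, 5.27 and 5.20 in replicates 1 to 4. Its arrays lay within 0.21 of each other. Kars1, the lysyl-tRNA synthetase, was at 2.46, 2.45, 2.43 and 2.68 in replicates 1 to 4. Replicate 4 stood above the other 3 arrays, which were within a few hundredths of each other.

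Phenylalanyl-tRNA synthetase has an alpha and a beta subunit from separate genes. The alpha subunit gene Farsa had a level of 4.18 ± 0.13 and the beta subunit gene Farsb one of -0.38 ± 0.05 (SD, n = 4). On replicate 3, Farsa was at its lowest, 3.99, whereas Farsb was lowest on replicate 1, at -0.44. The alanyl-tRNA synthetase Aars1 (2.90 ± 0.07), the seryl-tRNA synthetase Sars1 (1.25 ± 0.24) and the threonyl-tRNA synthetase Tars1 (2.26 ± 0.18) were above the 75th percentile on every array. Sars1 was at 1.08, 1.60, 1.15 and 1.16 in replicates 1 to 4, with replicate 2 above the others. The asparaginyl-tRNA synthetase Nars1 was at -1.97, -1.78, -1.41 and -1.60 in replicates 1 to 4. The histidyl-tRNA synthetase Hars1 had a level of -1.60 ± 0.14.

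In class I, the cysteinyl-tRNA synthetase Cars1 varied most. It was at -0.60, -0.17, -0.31 and -1.55 in replicates 1 to 4. Replicate 4 was the low array, and the other 3 lay within 0.43 of each other. The valyl-tRNA synthetase Vars1 was at -0.97, -0.97, -1.41 and -0.82, with replicate 3 below the others. The tyrosyl-tRNA synthetase Yars1 was at 1.13, 1.61, 1.27 and 1.21, with replicate 2 above the others. The tryptophanyl-tRNA synthetase Wars1, which interferon gamma induces in human and mouse cells, had a level of 2.91 ± 0.14.

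All 7 measured genes of the multi-synthetase complex were above the 75th percentile, and none had an SD over 0.19. Rars1, the arginyl-tRNA synthetase, had the smallest SD of the cytosolic set, with 2.10, 2.13, 2.15 and 2.05 in replicates 1 to 4. Eprs1, which carries the glutamyl- and prolyl-tRNA synthetase activities in 1 protein, had a level of 1.32 ± 0.19, lowest on replicate 2 and highest on replicate 3. The isoleucyl-, leucyl- and methionyl-tRNA synthetases Iars1, Lars1 and Mars1 had levels of 1.73 ± 0.07, 1.97 ± 0.18 and 1.92 ± 0.12. Qars1, the glutaminyl-tRNA synthetase, was at 3.67 ± 0.15. The median SD was 0.12 for the 7 complex genes and 0.16 for the 12 other cytosolic genes, and the difference was not tested. The complex's scaffold genes Aimp1 (3.42 ± 0.12), Aimp2 (2.56 ± 0.10) and Eef1e1 (0.36 ± 0.13) were also above background on all 4 arrays.

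Among the mitochondrial genes, Tars2 (threonine) was at 0.63, 0.79, 0.53 and 0.78 in replicates 1 to 4. Pars2 (proline) had the smallest SD of all members, at 0.45, 0.53, 0.51 and 0.52. Sars2 (serine) lay at the 75th percentile, at 0.18, -0.03, -0.20 and 0.05. Aars2 (alanine) was at -4.92, -4.82, -4.85 and -4.86, and the 4 arrays differed by 0.11 at most.

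Hars2, the mitochondrial histidyl-tRNA synthetase, was at -2.87, -2.48, -2.46 and -3.72 in replicates 1 to 4. As for Cars1, replicate 4 was the low array, and the other 3 lay within 0.41 of each other. Vars2 (valine) was at -2.33, -3.52, -3.73 and -3.24, with replicate 1 above the rest. Yars2 (tyrosine) was at -3.12, -3.12, -2.94 and -2.69, highest on replicate 4, whereas Nars2 (asparagine) was at -3.16, -3.05, -3.17 and -3.47, lowest on replicate 4. The other mitochondrial genes were Cars2 (-1.74 ± 0.15), Fars2 (-1.79 ± 0.15), Rars2 (-1.46 ± 0.05), Wars2 (-2.93 ± 0.09) and Ears2 (-3.80 ± 0.07), for cysteine, phenylalanine, arginine, tryptophan and glutamate.

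Whether a gene differed between the exposed cultures by more than genes of like level was tested with limma, which set each gene's variance over the 4 arrays against a prior variance fitted as a trend on level, for the 8376 genes measured above background in every replicate. Of all these genes 0.191% passed at an adjusted p of 0.05, and 0 of the 32 synthetase genes did. At an unadjusted p under 0.05 there were 3 synthetase genes, Cars1, Hars2 and Vars2, where the share of all genes was 5.75%. Cars1 had an SD of 0.62, which was 3.22 times the fitted SD of genes of like level (limma, unadjusted p 0.00269, adjusted p 0.26). Cars1 was the one member to pass under any alternative. Its limma adjusted p was 0.0148 after normexp background correction, where 154 of all genes passed. It was 0.000764 with no filter on dim genes, where 370 passed and the prior degrees of freedom were infinite. In the main fit 16 genes passed, with 9.16 prior degrees of freedom. Over all alternatives the limma adjusted p of Cars1 ran from 0.000764 to 0.988, highest without replicate 4. Vars2 (SD 0.62, 2.46 times) and Hars2 (SD 0.59, 2.44 times) had adjusted p values of 0.545 and 0.557 in limma. Without replicate 4 the limma adjusted p was 0.299 for Vars2 and 0.988 for Hars2.

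**Figure D2:**
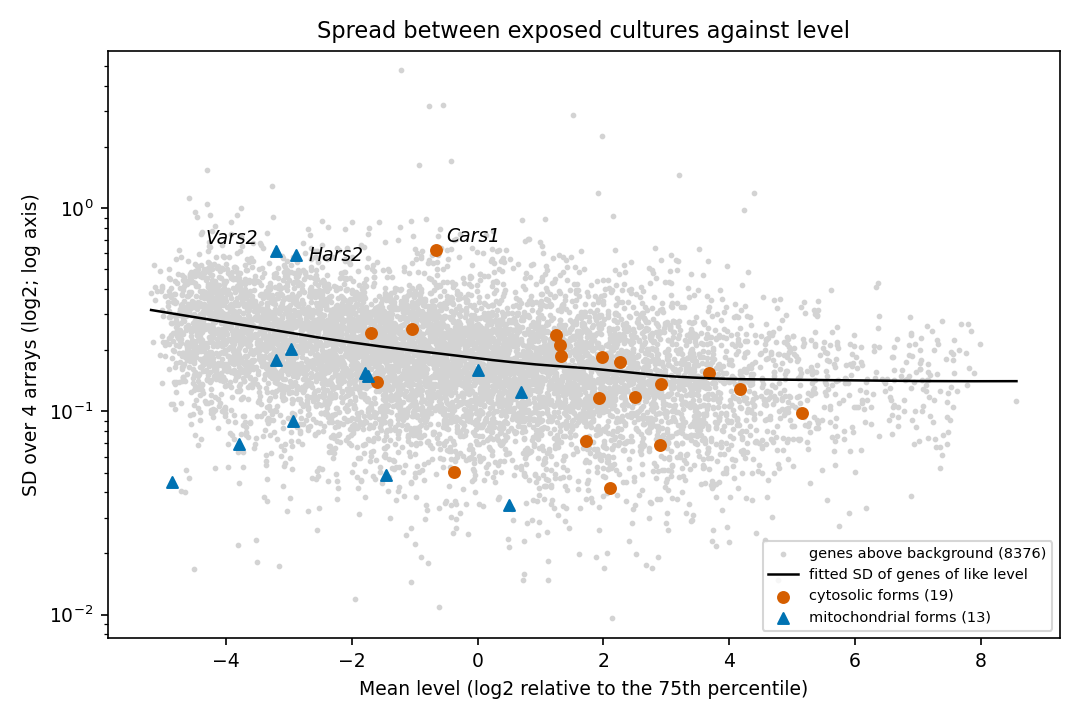
SD over the 4 arrays (y axis, log scale) against mean level (x axis, log2 relative to the 75th percentile) for the 8376 genes above background, with cytosolic synthetases as orange circles, mitochondrial synthetases as blue triangles and the SD fitted by limma as a line. Cars1, Hars2 and Vars2 stand above the line, and 11 of the 13 mitochondrial genes lie below it.

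Most members varied no more than other genes. The median SD was 0.14 for the 19 cytosolic genes, 0.15 for the 13 mitochondrial genes and 0.18 for all genes above background. Mitochondrial probes were dimmer, and the fitted SD is larger for dim genes. Set against it, 10 of 19 cytosolic genes and 11 of 13 mitochondrial genes had an SD below the fitted one, against 56.4% of all genes. The median ratio of SD to fitted SD was 0.903 for cytosolic genes, 0.716 for mitochondrial genes and 0.922 for all genes. These are descriptions, and the difference between the compartments was not tested.

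For 13 pairs of a cytosolic and a mitochondrial gene for the same amino acid, the cytosolic gene had the larger SD in 9 and the mitochondrial gene in 4; Eprs1 counts in the pairs of glutamate and of proline. In the cysteine pair, Cars1 had an SD of 0.62 and Cars2 one of 0.15. In the histidine pair it was the other way, with 0.14 for Hars1 and 0.59 for Hars2. In the valine pair the SD was 0.25 for Vars1 and 0.62 for Vars2. In the arginine pair both genes were steady, with 0.04 for Rars1 and 0.05 for Rars2.

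Hars1 and Hars2 lie head to head in the rat genome and share their start region, which is shown because the 2 genes differed on replicate 4, where Hars1 was at -1.72 and Hars2 at -3.72, deviations of -0.12 and -0.83 from their own means. The stretch between the annotated genes is 97 bases long (GRCr8, chr18:28672713-28672809, plus strand of RefSeq, on which Hars2 is read). The capitals mark a match to the ETS motif CCGGAAG on the minus strand.
Hars1-Hars2: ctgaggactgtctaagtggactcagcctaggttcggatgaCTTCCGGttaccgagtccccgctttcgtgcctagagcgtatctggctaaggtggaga

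For some members the spread among repeat spots of an array was measured too. The probes of Gars1, Lars1, Qars1 and Tars1 are spotted 10 times on each array. For Gars1, the SD among repeat spots had a median of 0.04 over the arrays, and the SD between array means was 0.10. For Lars1 the values were 0.07 and 0.18, for Qars1 0.09 and 0.15, and for Tars1 0.06 and 0.18. The SD between array means, which holds differences between cultures and between arrays, was 1.73 to 2.86 times the SD among spots. For Eprs1, Farsa, Iars1 and Mars1, spotted 2 times on each array, the ratio was 1.44 to 3.90. Each ratio sets means over spots against the SD of single spots. The spot error of such a mean is smaller and depends on the number of spots, so the 2 sets of ratios are not alike in scale. Of the 316 spots of members, 6 were marked as outliers, all in these multiply spotted probes of Lars1, Qars1 and Tars1. Cars1, Hars2 and Vars2 have 1 probe and 1 spot each, so their single-array values rest on 1 spot.

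Of the 32 measured genes, 7 had 2 probes. For Gars1, Hars1, Lars1 and Wars1 both probes were above background on all 4 arrays. The Gars1 probes differed: the second was at 0.18, 0.51, 0.36 and 0.52 in replicates 1 to 4, above its own mean on replicate 2 and below it on replicate 3, where the first was below and above. The second probe of Wars1 was at -0.85, -0.40, -0.86 and -0.88 in replicates 1 to 4, so both Wars1 probes were lower on replicates 1 and 3 than on replicate 2, and they differed on replicate 4, which was high in the first probe (3.04) and low in the second. Both Hars1 probes were lowest on replicate 4 and highest on replicate 2. Both Lars1 probes were higher on replicates 3 and 4 than on 1 and 2. For Ears2, Fars2 and Pars2 the second probe was above background on no array, and all 3 of these second probes read highest on replicate 4, the array of lowest signal.

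The arrays were next compared through each gene's deviation from its own mean over the 4 arrays. This removes the mean level of the probe, but not array effects that vary with brightness. On replicate 1, 15 of 19 cytosolic genes and 7 of 13 mitochondrial genes were below their own mean, against 54.3% of all genes. Replicate 1 was the lowest array for 10 cytosolic genes (Aars1, Farsb, Lars1, Mars1, Nars1, Qars1, Sars1, Tars1, Wars1 and Yars1) and for 3 mitochondrial genes, against 29.9% of all genes. Replicate 2 was lowest for 3 cytosolic and 2 mitochondrial genes (20.4% of all genes), replicate 3 for 3 and 4 (34.4%), and replicate 4 for 3 and 4 (15.4%). The macrophage markers had another order, with median deviations of 0.04, 0.00, -0.16 and 0.14 in replicates 1 to 4. The median deviation of the cytosolic genes was -0.08, 0.02, 0.04 and 0.04 in replicates 1 to 4. For mitochondrial genes it was -0.02, 0.01, 0.01 and 0.00, and for all genes -0.02, 0.01, -0.03 and 0.07. The count depends on the scaling. With quantile normalization, replicate 1 was lowest for 10 of 19 cytosolic genes against 24.0% of all genes, and with cyclic loess for 8 of 19 against 24.6%. With a 75th percentile of only the probes that are above background throughout, replicate 1 was lowest for 4 of 19 cytosolic genes, against 20.5% of all genes. Replicate 4 was then lowest for 7 of 19, against 24.2%. For mitochondrial genes, replicate 4 was lowest for 7 of 13 under each of these scalings, against 25.1%, 25.5% and 24.2% of all genes. Replicate 1 was lowest for 0 of 13 under each. With the mean over probes, replicate 4 was lowest for 2 of 13 mitochondrial genes (15.6%).

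A factor that multiplies all signals of an array alike cancels in the difference between compartments. An array effect that varies with brightness does not cancel, and the mitochondrial probes were dimmer. The mean deviation of cytosolic genes minus that of mitochondrial genes was -0.15, 0.04, 0.06 and 0.05 in replicates 1 to 4. Replicate 1 was thus the array on which cytosolic genes were lowest relative to mitochondrial ones. Part of that value came from the single gene Vars2, whose deviation on replicate 1 was 0.88. Without Cars1, Hars2 and Vars2 the difference was -0.09, 0.02, 0.04 and 0.03. On replicate 4 the mean deviation was -0.015 for cytosolic and -0.068 for mitochondrial genes, and after normexp background correction -0.018 and 0.011. No test of the difference is given, since these are replicates of 1 group.

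**Figure D3:**
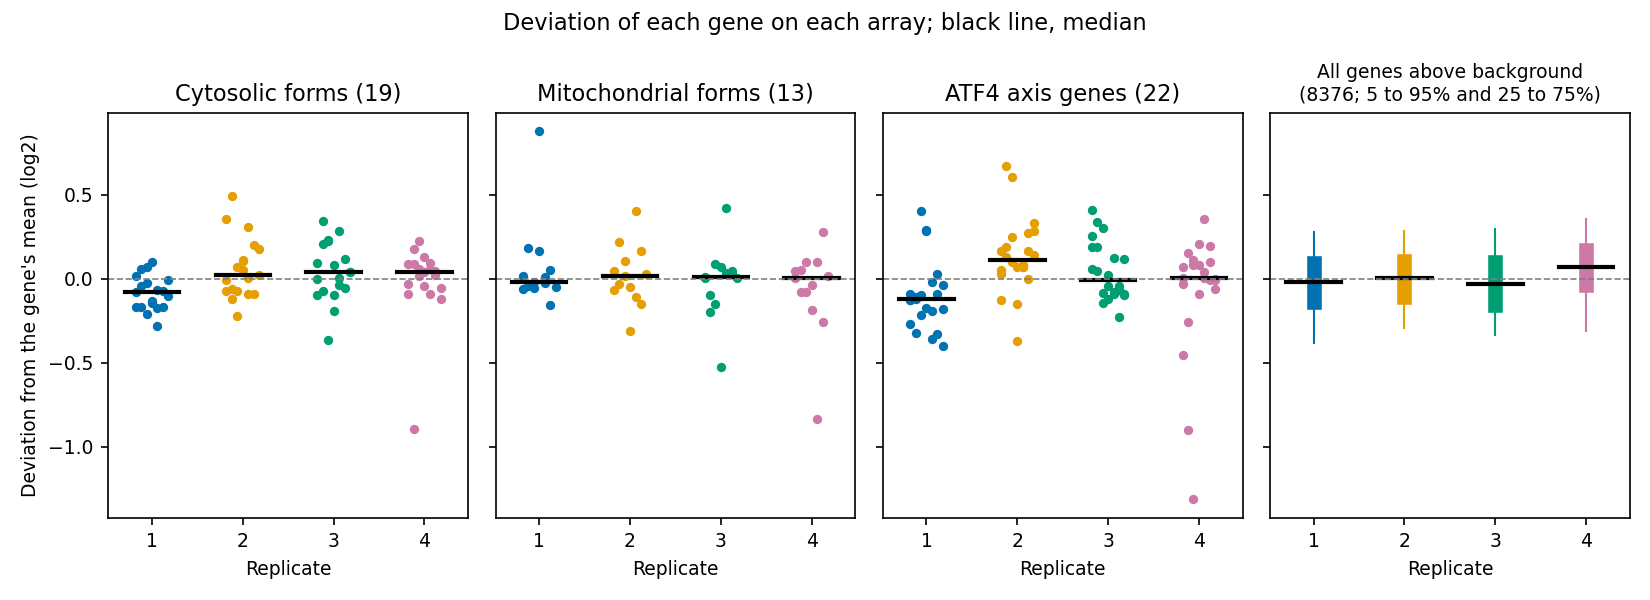
Deviation of each gene from its own mean over the 4 arrays (y axis, log2) by replicate (x axis) for cytosolic synthetases, mitochondrial synthetases and ATF4 axis genes, with 1 point per gene and the median as a black line; the right panel gives the 5 to 95% and 25 to 75% ranges of all genes above background. The median of cytosolic genes is lowest on replicate 1, at -0.08, and so is that of ATF4 axis genes, at -0.12, while the mitochondrial medians lie between -0.02 and 0.01; the order of the arrays changes with the scaling.

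Of the 19 cytosolic genes, 11 are known as ATF4 targets in mouse or human cells: Aars1, Cars1, Eprs1, Gars1, Iars1, Mars1, Nars1, Sars1, Tars1, Wars1 and Yars1. Replicate 1 was the lowest array for 7 of these 11 and for 3 of the 8 other cytosolic genes, against 29.9% of all genes. The counts were 7 and 3 with quantile normalization (24.0% of all genes), 5 and 3 with cyclic loess (24.6%), and 2 and 2 with the percentile of probes above background throughout (20.5%). The mean deviation of the 11 was -0.11, 0.07, 0.10 and -0.06 in replicates 1 to 4, and that of the 8 others -0.05, 0.05, -0.05 and 0.05. The median SD was 0.18 for the 11 and 0.13 for the 8. On replicate 4 the deviation of Cars1 was -0.89 and the median of the 11 was 0.02. In this scaling 1 of the 11, Cars1, was lowest on that array, against 15.4% of all genes. The count was 2 with quantile normalization (25.1%), 4 with cyclic loess (25.5%) and 5 with the percentile of probes above background throughout (24.2%). The mean deviation of the 11 on replicate 4 was then -0.13, -0.14 and -0.13. Of the 8 others, 2 were lowest there under each.

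The other genes of the ATF4 axis were given beside them. Of 23 listed genes, 22 were measured, and all 22 were above background on all 4 arrays. Replicate 1 was the lowest array for 13 of the 22, against 29.9% of all genes, and their median deviation was -0.12, 0.11, -0.01 and 0.00 in replicates 1 to 4. With the percentile of probes above background throughout, replicate 1 was lowest for 8 of the 22, against 20.5% of all genes, and with quantile normalization or cyclic loess for 10. Atf4 itself was at 4.30, 4.62, 4.82 and 4.54, lowest on replicate 1. Trib3, a pseudokinase that ATF4 induces, was at 1.37, 2.06, 1.89 and 1.77, also lowest on replicate 1, and Asns, the asparagine synthetase that is a classical ATF4 target, was at 3.58, 3.70, 3.73 and 3.67.

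One gene of this axis passed limma's test, Cebpg, whose protein pairs with ATF4. It was at 1.48, 1.68, 1.37 and -0.24 in replicates 1 to 4, low on replicate 4 (limma adjusted p 0.0395). The call was lost under 6 alternatives, with a limma adjusted p of 0.988 without replicate 4, 0.502 without replicate 2 and 0.815 with a constant prior. Ddit3, which encodes the stress factor CHOP, was at 0.89, 1.67, 1.34 and 0.10 (limma adjusted p 0.16). Mthfd2, a mitochondrial folate enzyme, was at 2.94, 3.23, 3.48 and 2.61 (limma adjusted p 0.536). It has 2 probes, and with the mean over probes its limma unadjusted p went from 0.0135 to 0.148 (adjusted p 0.974). Without replicate 4 the limma adjusted p was 0.801 for Ddit3 and 0.973 for Mthfd2. Replicate 4 was the lowest array for 4 of the 22 genes of the axis, against 15.4% of all genes. The count was 9 with quantile normalization (25.1% of all genes) and 9 with cyclic loess (25.5%). With the percentile of probes above background throughout it was 7 (24.2%). Cebpb was at 5.49, 4.83, 5.08 and 5.40, lowest on replicate 2 (limma adjusted p 0.764).

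**Figure D4:**
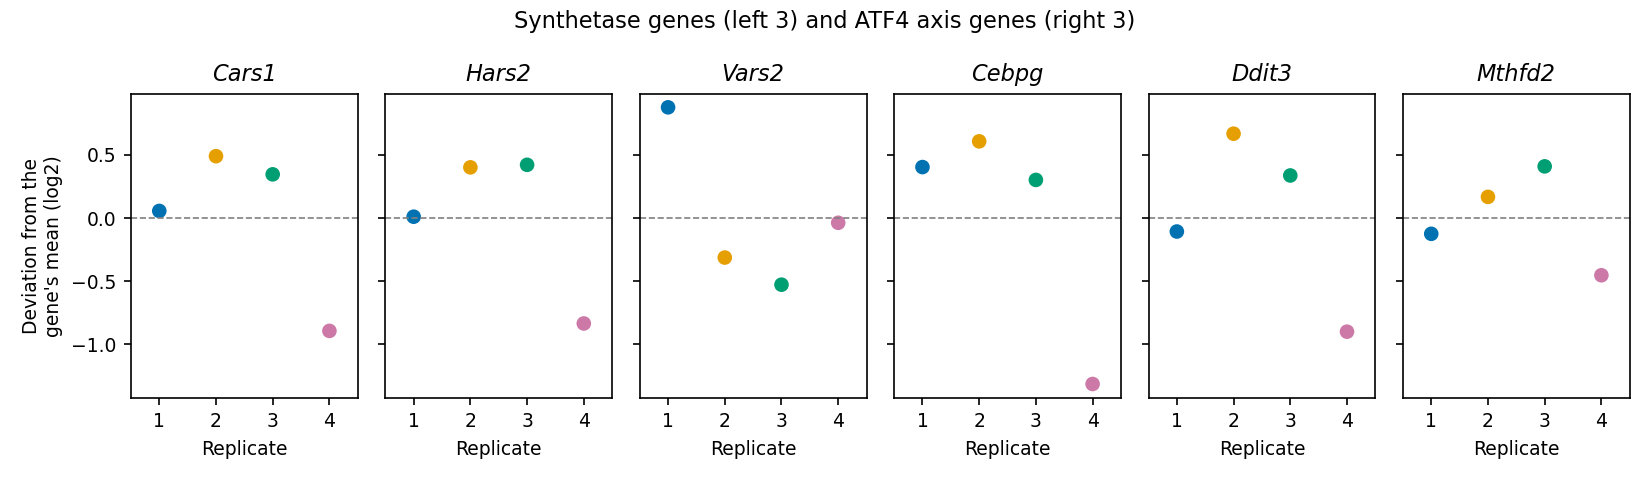
Deviation from the gene's own mean (y axis, log2) on each of the 4 arrays (x axis) for the synthetase genes Cars1, Hars2 and Vars2 and the ATF4 axis genes Cebpg, Ddit3 and Mthfd2. Replicate 4 is the lowest point in every panel except that of Vars2, where replicate 1 stands above the others at 0.88. The 3 axis genes were picked with their values known, and Mthfd2 is shown by 1 of its 2 probes. In the main scaling 4 of the 22 axis genes were lowest on replicate 4, a count that changes with the scaling.

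RefSeq promoter windows of 300 bases (250 before and 50 after a start site, GRCr8) were searched for 32 of the 35 genes, 16 cytosolic and 16 mitochondrial. The core of the C/EBP-ATF composite element through which ATF4 acts, TGATGCAA on either strand, was present in the windows of 6 cytosolic genes (Cars1, Iars1, Mars1, Nars1, Tars1 and Yars1) and of 0 mitochondrial genes. Among all 33468 windows searched, 0.792% hold it. All 6 genes were among the 9 genes with a searched window that are listed as ATF4 targets, and none among the 7 other cytosolic genes with a window. As ATF4 acts through this element, the list and the match are not independent of each other. The 30 bases around each match are shown because the core was found in these cytosolic genes and in no mitochondrial gene; the other 10 cytosolic genes searched lacked it too, and the difference was not tested. Each is written 5′ to 3′ on the strand of its gene, and capitals mark the match, read as TTGCATCA where it lies on the opposite strand.
Cars1: cggcgccgcggTTGCATCAgattctggaaa
Iars1: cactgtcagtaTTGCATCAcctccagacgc
Mars1: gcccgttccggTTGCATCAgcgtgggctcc
Nars1: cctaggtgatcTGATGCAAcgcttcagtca
Tars1: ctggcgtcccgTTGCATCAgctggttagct
Yars1: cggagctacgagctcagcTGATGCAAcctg

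In GRCr8 these stretches are chr1:208225334-208225363 (minus strand) for Cars1, chr17:15193658-15193687 (minus) for Iars1 and chr7:65023752-65023781 (minus) for Mars1. Those of the other genes are chr18:60275778-60275807 (minus) for Nars1, chr2:62114811-62114840 (minus) for Tars1 and chr5:146820183-146820212 (plus) for Yars1. Counted in bases from the start site, the match began at -27 in Tars1, -24 in Iars1, -17 in Mars1, -14 in Nars1, 17 in Cars1 and 38 in Yars1. Of the 6 genes, 4 had replicate 1 as their lowest array, against 29.9% of all genes. The count was 4 with quantile normalization (24.0% of all genes) and 3 with cyclic loess (24.6%). With the percentile of probes above background throughout it was 1 (20.5%). Cars1 was lowest on replicate 4, and Iars1, whose arrays lay within 0.17 of each other, on replicate 2. A link between a match and the order of the arrays was not tested.

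The wider form of the element, TGATGNAAN, was found in the same 6 cytosolic genes, in 0 mitochondrial genes and in 3.96% of all windows. The ETS motif CCGGAAG was found in both compartments, in 9 of 16 cytosolic and 6 of 16 mitochondrial genes, against 8.75% of all windows. Hars1 and Hars2 are both counted, through the same bases of their shared start region. The E-box CACGTG was found in 4 cytosolic genes (Farsb, Iars1, Tars1 and Vars1) and 1 mitochondrial gene (Ears2), against 6.42% of all windows. The cAMP response element TGACGTCA was found in none of them, against 1.83%. Each motif was searched on both strands, and the 8 letters of TGATGCAA lie within the wider form. Among the 21 other ATF4 axis genes with a window, TGATGCAA was found in Chac1 and Nupr1. A match is a description of the letters, not of binding.

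**Figure D5:**
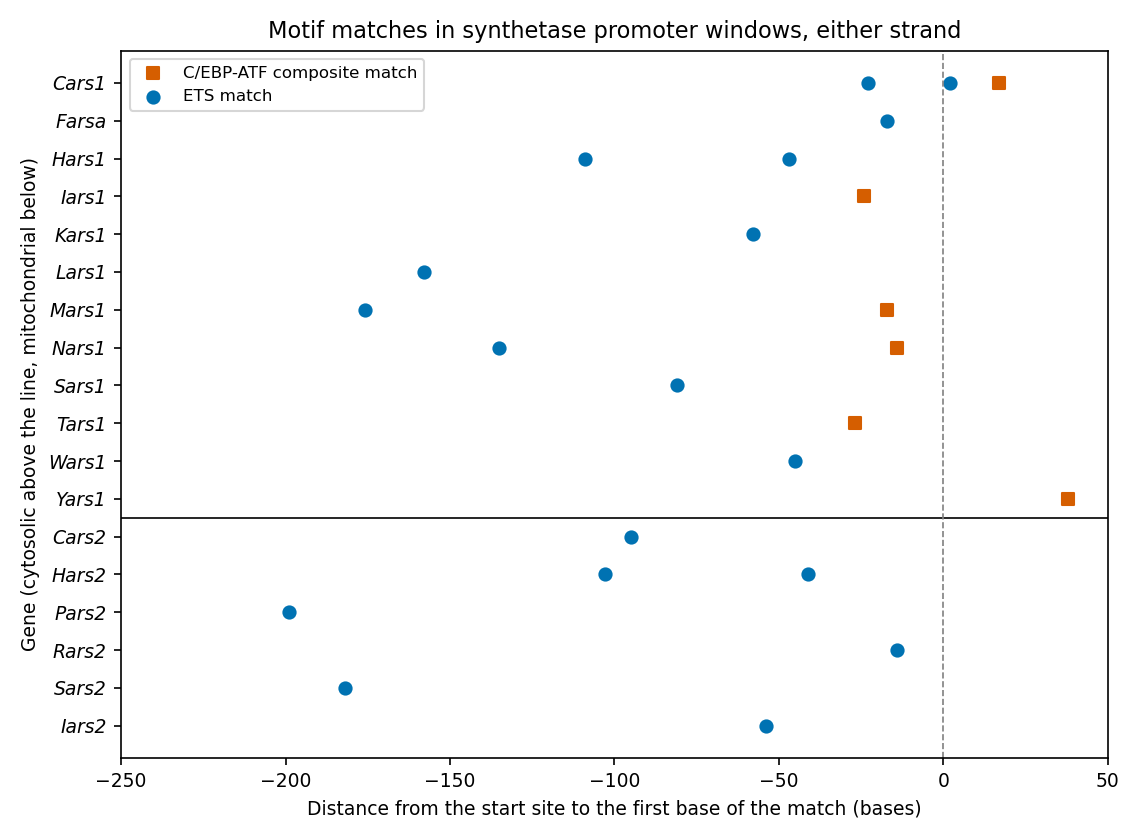
Position of matches to the C/EBP-ATF composite core (orange squares) and the ETS motif (blue circles), in bases from the start site (x axis), for the synthetase genes with a match to either (y axis; cytosolic above the line, mitochondrial below). The composite core is found in 6 cytosolic genes and no mitochondrial gene, whereas ETS matches are found in both.

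Genes that work beside the synthetases were above background as well. All 5 cytosolic elongation factor genes were, among them Eef1a1 (6.78 ± 0.11), which delivers charged tRNA to the ribosome, and Eef1b2 (5.92 ± 0.06). So were all 7 measured mitochondrial translation factor genes, among them the elongation factor Tufm (4.30 ± 0.10) and its exchange factor Tsfm (-0.62 ± 0.03). The amidotransferase subunit genes Qrsl1 (-1.36 ± 0.22) and Gatc (0.37 ± 0.07), which complete glutaminyl-tRNA in mitochondria, and the initiator formylase gene Mtfmt (-2.79 ± 0.26) were above background on all 4 arrays. None of the genes of these 3 groups or of the scaffold passed limma's test of spread, with adjusted p values from 0.945 to 1. The lowest was that of Mtif2, a mitochondrial initiation factor gene, which was at -4.12, -3.11, -3.23 and -3.71 in replicates 1 to 4.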

How the data were processed

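Each culture's total RNA was measured on its own Agilent rat array in 1 colour (Cy3), per the labels' protocols. The authors deposited processed signal intensity from Feature Extraction 11.0.1.1, background-subtracted and detrended within each array with no scaling between arrays, per the file headers. The deposited flags of 0 or 1 marked spots that were well above background, significantly positive, outlying or saturated. Per the file headers, rn4 is the build of the array's grid. The authors' own normalization and tests are not given in the sources used here.

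Control spots were left out, and outlier spots too unless all spots of a probe on that array were marked. Each array's 75th percentile was subtracted from log2 signal, and repeat spots were averaged. Of 45598 probes, 21109 were named through the GRCr8 RefSeq table, 0 matched several symbols and 24489 stayed unnamed. A gene took the probe above background on most arrays, then the brightest by mean. The spread test used limma (version 3.58.1, under R 4.3.3) with a robust trended prior (9.16 prior degrees of freedom) and Benjamini-Hochberg adjustment over 8376 genes. On simulated data of that comparison it called 47 of 100 genes with 5 times the SD, 93 of 100 with 10 times and 3 of 8176 unchanged genes. The planned normexp alternative used the median spot and background intensity, also deposited by the authors, with an offset of 50, since the files used here hold no mean spot signal. Members, gene lists, motifs and tests were chosen with earlier results of these data known. Values on each array are given for members of unadjusted p under 0.05, of largest range, or of highest or lowest mean level, and where genes are set side by side; Kars1, Rars1, Pars2, Sars2, Eef1e1, Mtfmt, Trib3, Asns and Mtif2 were added after their values were seen. One promoter window is not reported here and was left out of every motif count.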

Additional observations from a re-analysis of the deposited data

Results flagged for a closer look

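Dixon's criterion was applied to 75 sets of 4 values, and in 4 of them 1 array lay apart, a rate close to the 1 in 20 that chance gives. Among members, Kars1 stood apart on replicate 4 (2.68, with 2.46, 2.45 and 2.43 on the others), with a gap over range of 0.872. Sars1 stood apart on replicate 2, at 1.60 against 1.08, 1.15 and 1.16 in replicates 1, 3 and 4 (0.851). Of the pathway genes, Qrsl1 was low on replicate 1 (-1.70, with -1.24, -1.26 and -1.26 on the others), a gap over range of 0.946, and Cebpg was low on replicate 4 (-0.24, with 1.48, 1.68 and 1.37 on the others), a gap over range of 0.841. The wide spreads of Cars1, Hars2 and Vars2 did not meet this criterion.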

How the results depend on the processing

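All 32 measured members were above background under every mark, probe choice and omission tried. The number past the test of excess spread was 0 in limma, with 3 at an unadjusted p under 0.05, and 0 under 12 of 14 alternatives; it was 1 (Cars1) after normexp background correction, where 154 of all genes passed, and 1 (Cars1) with no filter on dim genes, where 370 passed. Without each replicate in turn the number stayed at 0, with 1 to 3 members at an unadjusted p under 0.05. Over all genes the count was 16, and it was 10 without the robust fit of the prior, 5 with a constant prior and 4 without replicate 2.

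The mean deviation of cytosolic members on replicate 4 was -0.02 and became -0.089 with cyclic loess. That of mitochondrial members on replicate 4 was -0.07; it became -0.13 with quantile normalization, with cyclic loess and with the 75th percentile over probes above background on all arrays, 0.011 after normexp, 0.0066 with the mean over probes, and -0.00084 without Cars1, Hars2 and Vars2, an alternative chosen after seeing the data. On replicate 1 it was 0.07, and it became 0.13 with the 75th percentile over probes above background on all arrays and 0.00073 without the same 3 genes. The other 79 values of these means moved by less than their spread between arrays, 0.065 for cytosolic and 0.058 for mitochondrial members. This spread is as large as most of the means, so it cannot show that they were stable. Among the 79, the cytosolic mean on replicate 1 went from -0.085 to -0.024 with the 75th percentile over probes above background on all arrays. With that percentile and with quantile normalization the cytosolic mean was lowest on replicate 4 (-0.078 and -0.080), as with cyclic loess. The cause of the moves was not tested. All 24 values of the median SD moved by less than the SD among the members' own SDs. That limit was 0.13 for cytosolic and 0.19 for mitochondrial members, where the medians were 0.14 and 0.15. It is too wide to show that the median SD was stable. The call of Cebpg was lost under 6 alternatives, among them without replicate 2 (adjusted p 0.502 in limma) and without replicate 4 (0.988). No paired analysis was possible because there is 1 group of samples.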
